A study of Mus musculus with 12 samples.

Results

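The nuclear receptor family was followed here as 36 named genes, each represented by its brightest probeset among those that the platform annotation gives to that gene alone. A probeset is a set of short probes on the array that reads one transcript. Of the 36 genes, 35 had such a probeset among 18193 genes measured. Nr1h2, the liver X receptor beta gene, had none in the annotation used. The 35 genes were covered by 94 probesets, and 14 of them by a single one. Nr2f1, Vdr and Hnf4g lay below the median of the array (4.98 to 5.11 on the log2 scale) in all groups, so that expression of these 3 above background is not shown. The other 32 members were above the array median in at least 1 group.

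The data were liver RNA of 12 mice on Affymetrix mouse arrays, 1 animal per array, in 4 groups of 3. Wild-type (Atf6a+/+) and Atf6a-/- animals, which lack the ER stress sensor ATF6a in all cells, received vehicle (dextrose) or 2 mg/kg tunicamycin (TM). Injection was intraperitoneal, 8 h before collection. The dextrose, at 150 mM, is recorded for all 12 animals, those given TM included. TM blocks N-linked glycosylation and thereby causes ER stress. Animals were of mixed and unstated age and of both sexes, were fasted, and were killed in the daytime. The deletion was carried by the whole body and the RNA came from liver homogenate, so that changes of hepatocytes cannot be told from those of other cells. The comparisons ask how these receptors respond to acute ER stress in liver and whether that response differs without ATF6a.

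Nuclear receptors are transcription factors, most of them opened or closed by a lipid-soluble ligand such as a bile acid, a steroid, a retinoid or thyroid hormone. Many bind DNA as a pair with a retinoid X receptor, and they recruit coactivators or corepressors to the genes they control. In liver they set the expression of genes of bile acid, drug, lipid and glucose metabolism and of the circadian clock.

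Values are log2 intensities, so that a difference of 1 is a doubling. The animals of a group are listed in the order of their numbers in the labels, which has no meaning across groups. A difference is given as a log2 difference with its standard error from limma, and calls required more than 1.5-fold and an adjusted p under 0.05 (Benjamini-Hochberg over all 45037 probesets). With 3 animals against 3, an exact permutation test of a single gene cannot give a p below 0.1. In whole liver, fewer cells of a type and less RNA per cell cannot be told apart.

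The brightest Atf6 probeset lay between 8.74 and 9.47 in wild-type and between 7.03 and 7.79 in Atf6a-/- animals with vehicle, and between 10.75 and 11.16 and between 9.76 and 10.50 with TM. Whether this probeset reads the deleted part of the transcript was not analysed here. Of 12 genes of the unfolded protein response, 11 were higher with TM in wild-type and 10 in Atf6a-/- animals, with Ddit3, which encodes the stress factor CHOP, at 6.79 and 6.13. Mean levels of 7 hepatocyte markers lay between 14.19 and 14.39 on all arrays and were highest in the 3 Atf6a-/- TM animals. Of the 7, 1 was called higher and 0 lower with TM in each genotype. They include Tat, which is also in the glucocorticoid list below and rose with TM, and Apoa1 and Ttr, also in the HNF4A list. The part of Tat in the higher mean was not tested. One array in each group carried signal of Y-linked genes, namely wild-type vehicle 2, wild-type TM 1, Atf6a-/- vehicle 3 and Atf6a-/- TM 2. Of the non-parenchymal markers, those of Kupffer cells averaged 8.81 to 9.72 with vehicle and 8.87 to 9.11 with TM in wild-type mice, and 8.89 to 9.57 and 8.37 to 8.95 in Atf6a-/- animals. Lymphocyte markers averaged 5.96 to 6.41 with vehicle and 5.75 to 5.85 with TM in wild-type mice and 5.97 to 6.22 and 5.65 to 5.77 in Atf6a-/- animals, so that all TM animals were below all vehicle animals of their genotype. The same held for cholangiocyte markers (5.09 to 5.20 and 4.91 to 4.95, and 5.04 to 5.20 and 4.75 to 4.89), which lay near the array median. Neutrophil markers averaged 5.30 to 6.28 and 4.94 to 5.50 in wild-type mice, which overlapped, and 5.58 to 6.45 and 4.89 to 5.52 in Atf6a-/- animals, which did not. Endothelial markers overlapped between TM and vehicle in both genotypes. Of 7 lymphocyte, 5 cholangiocyte and 4 neutrophil markers, 0 were called lower by limma in wild-type and 2, 1 and 0 in Atf6a-/- animals. The part of these cells in the receptor values was not tested.

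With TM, more of the receptors were called lower than higher by limma in both genotypes. In wild-type animals Rora and Rxrb were higher, 2 of 35, against 8.92% of all genes. Nr0b2, Nr1i3, Nr3c2, Esr1, Nr2f2 and Nr3c1 were lower, 6 of 35, against 6.9% of all genes. In Atf6a-/- animals Rora, Rxrb, Nr2c1, Hnf4a and Nr1i2 were higher, 5 of 35 (13.1% of all genes), and Nr0b2, Esr1, Nr3c2, Rarb, Nr1i3, Nr2f2, Nr6a1 and Thra were lower, 8 of 35 (8.21% of all genes). The median response of the 35 was -0.21 in wild-type and -0.23 in Atf6a-/- animals, against -0.06 and -0.10 over all genes. The methods' t-test with adjustment gave 2 members higher (4.2% of all genes) and 3 lower (2.67%) in wild-type animals, and in Atf6a-/- animals its balance was the other way, with 3 higher (8.92%) and 2 lower (4.14%). Over the arrays without Y-linked signal, 10 members were lower in wild-type animals, against 9.29% of all genes. Rora and Rxrb were called higher and Nr0b2, Nr1i3, Nr2f2, Nr3c2 and Esr1 lower in both genotypes, 21 members were called in neither, and none was called in opposite directions. The shares of all genes in these classes are not given here, so that the agreement between genotypes is no trait shown for the receptors.

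**Figure D1:**
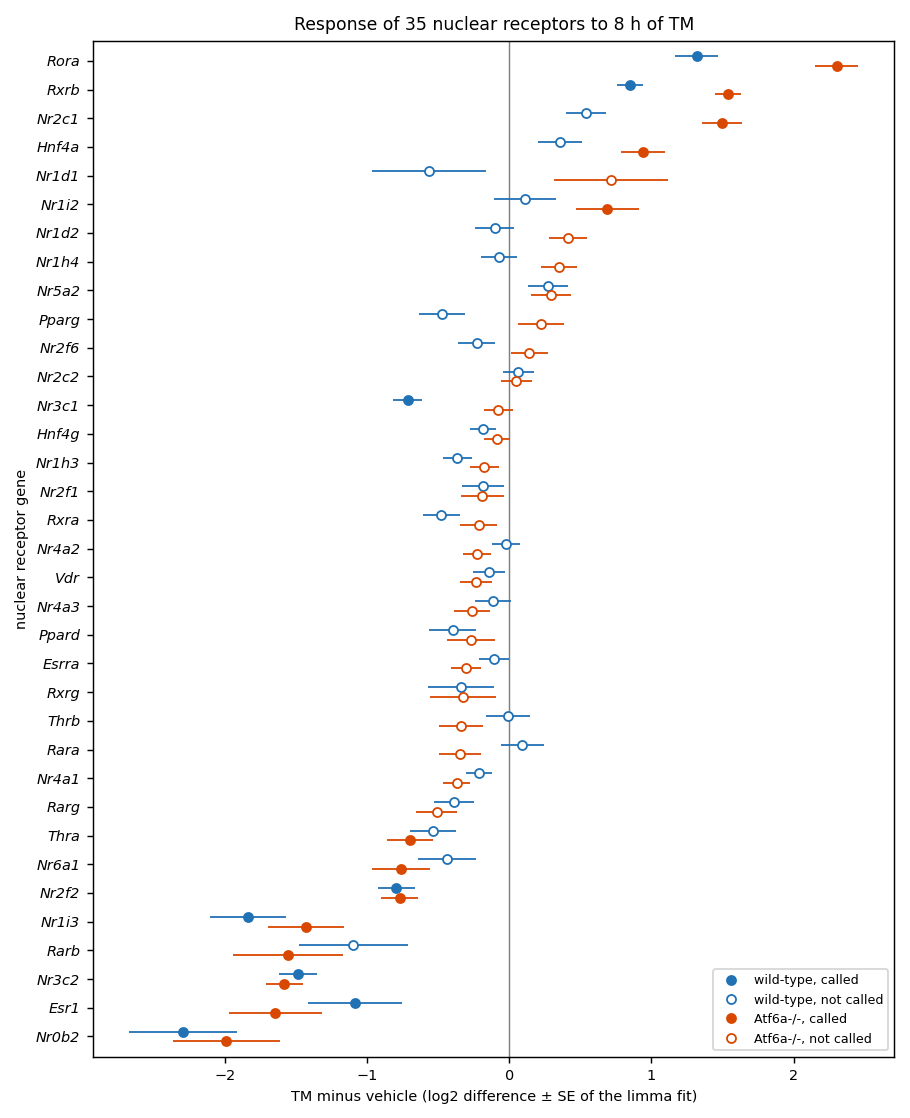
Log2 difference between TM and vehicle with its standard error for the 35 measured nuclear receptors (ordered by the Atf6a-/- response) in wild-type (blue) and Atf6a-/- (orange) animals, 3 per group. Filled points were called. Rora, Rxrb and Nr2c1 stand at the top with the orange point to the right of the blue one, and Nr0b2 at the bottom with -2.29 and -1.99.

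Rora encodes retinoic acid receptor-related orphan receptor alpha, which activates clock and lipid genes. Its levels were 10.23, 10.40 and 10.61 with vehicle and 11.85, 11.79 and 11.56 with TM in wild-type mice, and 10.18, 10.37 and 10.55 with vehicle and 12.54, 12.97 and 12.50 with TM in Atf6a-/- animals. Every TM animal was above every vehicle animal, and every Atf6a-/- TM animal was above every wild-type TM animal. TM raised Rora by 1.32 (SE 0.15, adjusted p = 5.9e-05) in wild-type and by 2.30 (SE 0.15, adjusted p = 7.8e-07) in Atf6a-/- animals. The genotypes differed by 0.94 under TM (SE 0.15, adjusted p = 0.0038). The response was larger by 0.98 without ATF6a (SE 0.21, adjusted p = 0.048). This last test was close to its limit, and leaving out any array but wild-type vehicle 1 brought its adjusted p to between 0.0504 and 0.13, with the difference between 0.83 and 1.07.

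Rora had 9 probesets, and 7 of them were called higher with TM in both genotypes. The response ranged from -0.07 to 1.78 in wild-type and from -0.08 to 2.88 in Atf6a-/- animals. The probeset with the largest response, the third brightest, gave 1.78 and 2.88, and its difference between the genotypes in response was 1.09 (adjusted p = 0.0073). The 2 that were not called in either genotype were the dimmest, with means of 6.09 and 5.56 over all arrays. The difference in response was called for 2 of the 9 probesets.

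**Figure D2:**
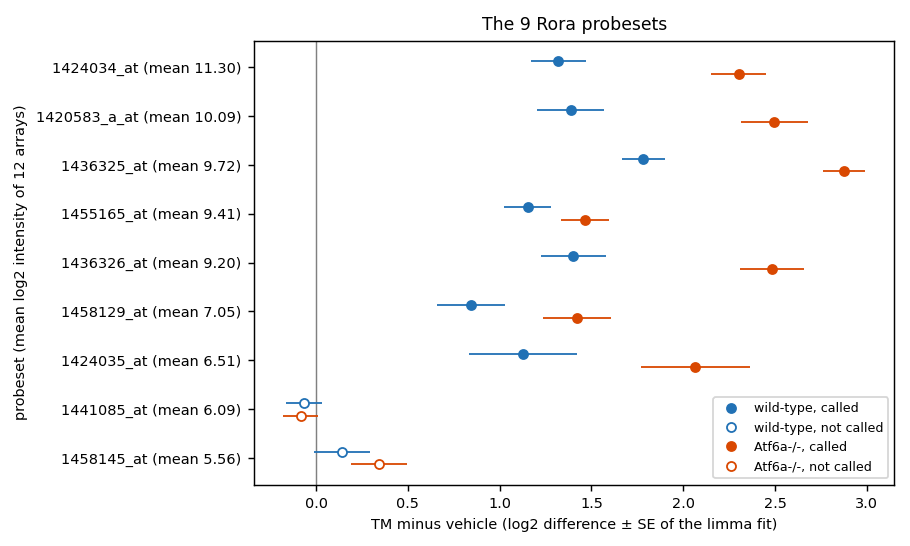
Log2 difference between TM and vehicle with its standard error for each of the 9 Rora probesets (ordered by their mean log2 intensity over the 12 arrays) in wild-type (blue) and Atf6a-/- (orange) animals. Filled points were called. In the 7 called probesets the orange point lies to the right of the blue one, while the 2 dimmest probesets lie near 0.

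The REV-ERB receptors, encoded by Nr1d1 and Nr1d2, repress genes at the DNA elements where RORs activate. Nr1d1 lay at 8.64, 7.30 and 9.26 with vehicle and 8.08, 7.75 and 7.68 under TM in wild-type animals, and at 7.95, 8.64 and 7.62 and at 8.86, 9.05 and 8.46 in Atf6a-/- animals. The wild-type vehicle animals spread over the whole range of the 12, and no comparison was called. Without wild-type vehicle 2, its lowest vehicle animal and one with Y-linked signal, the wild-type response was -1.11 (adjusted p = 0.015) and the difference in response 1.83 (adjusted p = 0.037), both past the limits. For Nr1d2 the Atf6a-/- TM animals, at 11.53, 11.41 and 11.57, were above all others, with a response of 0.41 (SE 0.13, adjusted p = 0.038), under 1.5-fold. Of 9 clock genes listed here under RORs and REV-ERBs, 3 were higher and 1 lower with TM in each genotype. Of all genes, 8.92% were higher and 6.9% lower with TM in wild-type and 13.1% and 8.21% in Atf6a-/- animals. The counts of the lists below are to be read beside these shares, and no list was tested as a set. Whether RORs and REV-ERBs control each of the 9 directly was not tested, nor was the control of the lists below by their receptors. Arntl, which encodes the core clock activator BMAL1, rose by 2.79 in wild-type and by 2.56 in Atf6a-/- animals. Clock, its partner, rose by 0.92 and 1.26 and Nfil3, a repressor of clock output genes, by 1.32 and 2.21. Dbp, an activator of clock output genes, was the gene that fell, by 1.09 (SE 0.33, adjusted p = 0.035) and 1.02 (SE 0.33, adjusted p = 0.034). Tef, its relative, was at -0.58 and -0.21, the former just under 1.5-fold.

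Retinoid X receptors are the shared partners of many other members. Rxrb, the beta form, lay at 9.72, 9.77 and 9.72 with vehicle and 10.66, 10.54 and 10.56 under TM in wild-type animals, and at 9.65, 9.60 and 9.70 and at 11.23, 11.01 and 11.32 in Atf6a-/- animals. No TM animal overlapped a vehicle animal, and none of the 3 Atf6a-/- TM animals overlapped the wild-type TM animals. It rose by 0.85 (SE 0.09, adjusted p = 4.4e-05) in wild-type and by 1.54 (SE 0.09, adjusted p = 4.8e-07) in Atf6a-/- animals. The response was larger by 0.69 without ATF6a (SE 0.13, adjusted p = 0.026). Under TM the genotypes differed by 0.60 (SE 0.09, adjusted p = 0.0030), just over 1.5-fold, and by 0.53 to 0.58 without Atf6a-/- TM 1, Atf6a-/- TM 3 or wild-type TM 2. The adjusted p for the difference in response rose to between 0.055 and 0.081 without any 1 of Atf6a-/- TM 1 and 3, Atf6a-/- vehicle 1 and 2, wild-type TM 2 and 3 and wild-type vehicle 3. Rxrb had 1 probeset.

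Rxra, the main retinoid X receptor gene of hepatocytes, lay at 11.07, 11.29 and 11.50 with vehicle and at 10.85, 10.72 and 10.86 with TM in wild-type animals, a difference of -0.48 (SE 0.13, adjusted p = 0.023) that stayed under 1.5-fold. Without wild-type vehicle 1 it was -0.59 and passed. In Atf6a-/- animals it lay at 11.30, 11.59 and 11.42 with vehicle and 11.43, 11.17 and 11.06 with TM, and the groups overlapped. Rxrg, the gamma form, was not called with TM, at -0.34 and -0.33, though without Atf6a-/- TM 3 it reached -0.60 in Atf6a-/- animals (adjusted p = 0.048).

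Of the retinoic acid receptors, which bind all-trans retinoic acid, Rarb was called. It lay at 7.07, 5.56 and 7.01 with vehicle and at 5.68, 5.16 and 5.50 under TM in wild-type animals, and at 7.25, 7.13 and 5.97 and at 5.23, 5.37 and 5.08 in Atf6a-/- animals. The low vehicle animal of each genotype was the one with Y-linked signal. The Atf6a-/- response was -1.56 (SE 0.39, adjusted p = 0.0094). The wild-type groups overlapped, with -1.095 (adjusted p = 0.072). The difference was -1.59 (adjusted p = 0.0027) without wild-type vehicle 2, and its adjusted p was 0.035 without Atf6a-/- vehicle 3, past the limits in both cases. The same 2 vehicle animals had the lowest mean of the 8 Kupffer cell markers in their groups. It was 8.81 and 8.89, against 9.65 and 9.72 and 9.56 and 9.57 in the others. They were also lowest for the 8 stellate cell markers (8.85 and 8.95, against 9.32 and 9.33 and 9.26 and 9.12). The same held for endothelial (8.42 and 8.37), neutrophil (5.30 and 5.58) and lymphocyte markers (5.96 and 5.97). For cholangiocyte markers it held in Atf6a-/- animals alone (5.04), and wild-type vehicle 2 was the highest of its group (5.20). With TM the stellate mean lay between 8.72 and 9.03 in wild-type and between 8.50 and 8.90 in Atf6a-/- animals, and 2 and 1 of the 8 markers were called lower. Of the Kupffer cell markers, 0 of 8 were called lower in wild-type and 3 in Atf6a-/- animals. With the Y-linked signal as a second factor beside the groups, Rarb differed by -0.53 between arrays with and without it (SE 0.25, adjusted p = 0.39), which was not called. With that signal, less Xist, as a covariate the wild-type response was -1.08 (adjusted p = 0.037), and over the arrays without it -1.70 (adjusted p = 3.8e-05), past the limits in both cases. The part of cell composition in the Rarb values was not tested.

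Rara, at 0.09 and -0.35, and Rarg were not called. Rarg had -0.39 in wild-type and -0.51 (adjusted p = 0.019) in Atf6a-/- animals, and the latter passed 1.5-fold without Atf6a-/- TM 2 or Atf6a-/- vehicle 3 (-0.59 in either case). Among 10 retinoid genes, 2 were higher and 2 lower after TM in wild-type mice and 1 and 5 in Atf6a-/- animals. Lrat, which stores retinol as esters and is also one of the stellate markers, fell by 0.88 and 1.54. Tgm2, a transglutaminase induced by retinoic acid, fell by 1.00 and 0.92. Rdh11, a retinal reductase, was lower by 1.07 in Atf6a-/- than in wild-type animals under TM (SE 0.20, adjusted p = 0.010, a log2 difference of -1.07). Aldh1a1, which makes retinoic acid, fell by 0.80 in Atf6a-/- animals. Stra6l, a retinol transporter, rose by 0.68 and 0.73. Cyp26b1 and Cyp26a1, which break down retinoic acid, were at 0.91 and -0.37 and at -1.15 and -2.03, of which the first and the last were called.

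Nr2c1 encodes testicular receptor 2, an orphan receptor. It lay at 7.74, 8.12 and 7.79 with vehicle and 8.53, 8.27 and 8.47 under TM in wild-type animals, and at 7.80, 7.58 and 8.04 and at 9.47, 9.19 and 9.25 in Atf6a-/- animals. The wild-type groups did not overlap, and the Atf6a-/- TM animals stood above all others. Nr2c1 rose by 1.499 in Atf6a-/- animals (SE 0.14, adjusted p = 9.3e-06). In wild-type animals the response of 0.54 (adjusted p = 0.018) was under 1.5-fold and passed it without wild-type TM 2 or wild-type vehicle 2 (0.62 and 0.66). The genotypes differed by 0.88 under TM (SE 0.14, adjusted p = 0.0036), and the response was larger by 0.96 without ATF6a (SE 0.20, adjusted p = 0.039). That last p was between 0.051 and 0.12 after leaving out any array but Atf6a-/- TM 2, Atf6a-/- vehicle 3 or wild-type vehicle 1. Of the 5 Nr2c1 probesets, 4 were called higher with TM in Atf6a-/- animals, and 1 was called for the difference in response. With the mean of all 5 the difference was 0.41 (adjusted p = 0.26). Its paralog Nr2c2 (testicular receptor 4) was at 0.07 and 0.05, and 0 of its 6 probesets were called.

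**Figure D3:**
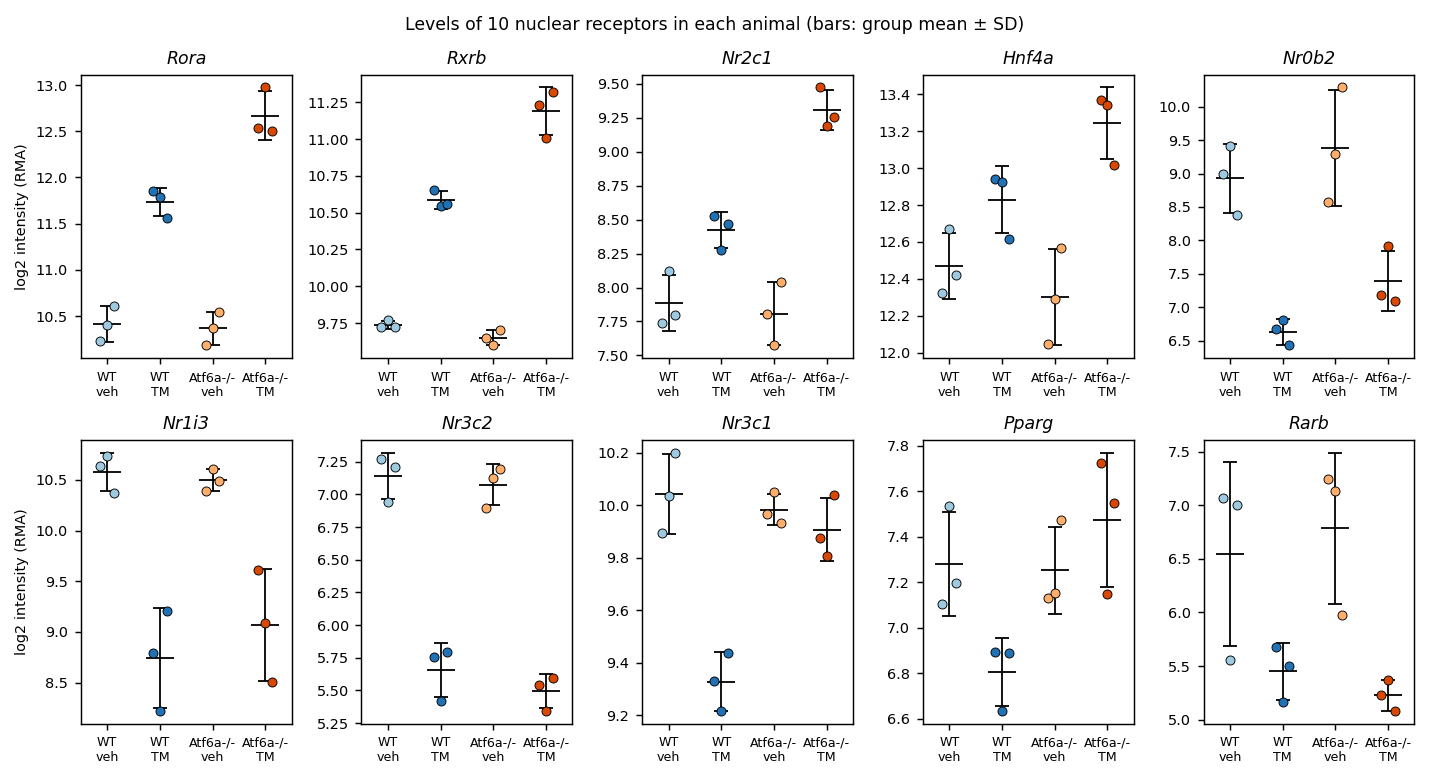
Log2 intensity (vertical axes, separate for each gene) of 10 nuclear receptors in each of the 12 animals, by group (WT, wild-type; veh, vehicle), with the group mean and SD as black bars. Rora, Rxrb and Nr2c1 are highest in the Atf6a-/- TM animals, Nr3c1 is low in the wild-type TM animals alone, and Rarb has 1 low vehicle animal in each genotype.

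The sequence before the start of these 3 genes is shown because they were the members whose response differed between the genotypes, together with that of Nr0b2 and Nr1i3, which had the largest falls in wild-type animals. Each is the 250 bases before the gene's start in the RefSeq table of GRCm38.p6 (for Rxrb, the upstream one of 2 starts), 5′ to 3′ on the coding strand, in lower case with the E-box CACGTG in capitals.
Rora, chr9:68653536-68653785, plus strand: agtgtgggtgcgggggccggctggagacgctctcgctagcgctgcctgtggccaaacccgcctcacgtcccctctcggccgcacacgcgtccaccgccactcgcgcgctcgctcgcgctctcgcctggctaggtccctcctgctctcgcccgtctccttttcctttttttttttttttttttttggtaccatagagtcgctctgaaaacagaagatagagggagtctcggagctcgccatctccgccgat
Rxrb, chr17:34031562-34031811, plus strand: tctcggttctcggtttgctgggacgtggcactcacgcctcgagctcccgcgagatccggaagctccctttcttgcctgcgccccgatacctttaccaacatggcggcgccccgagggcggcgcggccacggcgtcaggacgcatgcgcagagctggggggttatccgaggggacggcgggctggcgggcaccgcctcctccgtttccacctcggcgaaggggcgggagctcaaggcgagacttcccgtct
Nr2c1, chr10:94147681-94147930, plus strand: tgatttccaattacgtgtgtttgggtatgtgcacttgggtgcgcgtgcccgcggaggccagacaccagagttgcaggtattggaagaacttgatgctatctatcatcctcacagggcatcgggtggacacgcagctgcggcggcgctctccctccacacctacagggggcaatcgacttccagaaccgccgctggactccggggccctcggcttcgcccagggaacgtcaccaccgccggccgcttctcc
Nr0b2, chr4:133553126-133553375, plus strand: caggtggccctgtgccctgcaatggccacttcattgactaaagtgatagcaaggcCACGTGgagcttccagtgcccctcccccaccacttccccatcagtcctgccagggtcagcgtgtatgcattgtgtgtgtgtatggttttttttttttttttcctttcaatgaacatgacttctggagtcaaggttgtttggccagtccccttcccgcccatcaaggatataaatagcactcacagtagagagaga
Nr1i3, chr1:171213720-171213969, plus strand: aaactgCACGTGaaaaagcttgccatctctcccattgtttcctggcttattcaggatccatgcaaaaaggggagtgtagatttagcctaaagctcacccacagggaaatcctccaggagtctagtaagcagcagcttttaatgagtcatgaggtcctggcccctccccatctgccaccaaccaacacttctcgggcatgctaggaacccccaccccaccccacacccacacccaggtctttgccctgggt
Windows from 250 bases before to 50 bases after the start were searched on both strands in 33 members. The unfolded protein response element TGACGTGG occurred in none of the 33 (0.714% of all genes with a window), and the D-box TTATGNAA in none (3.99%). The cAMP response element TGACGTCA occurred in Nr6a1 (2.03% of genes) and the C/EBP-ATF element TGATGNAA in Nr5a2, Nr6a1 and Esrra (4.51%). The E-box occurred in Nr0b2, Nr1i3, Rara and Thrb (8.09%), and the ROR and REV-ERB core motif AGGTCA in 10 of 33 (18.1%). The windows of Rora, Rxrb and Nr2c1 held none of these letters. Their 250 bases before the start were 61.2% G and C for Rora, 62.0% for Nr2c1 and 69.2% and 82.4% for the upstream and the other start of Rxrb, against a median of 52.4% over all windows. A match describes letters in the window and not a bound site. The unfolded protein response element is rare over all genes, so that its absence from 33 members shows little. Other elements were not searched, among them ERSE and ERSE-II, which the study's paper names for ATF6a.

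Nr0b2 encodes the small heterodimer partner SHP, a receptor without a DNA-binding domain that represses bile acid synthesis. It lay at 8.99, 9.42 and 8.38 with vehicle and 6.67, 6.81 and 6.43 under TM in wild-type animals, and at 8.57, 9.30 and 10.29 and at 7.18, 7.91 and 7.10 in Atf6a-/- animals. TM and vehicle animals did not overlap in either genotype. It fell by 2.29 (SE 0.38, adjusted p = 9.3e-04) in wild-type and by 1.99 (SE 0.38, adjusted p = 0.0017) in Atf6a-/- animals, and the difference in response of 0.30 (SE 0.53) was not called. Nr1h4 encodes FXR, the bile acid receptor that induces Nr0b2. It lay between 10.39 and 10.86 in all wild-type animals, with 10.69, 10.86 and 10.61 with vehicle and 10.73, 10.39 and 10.83 with TM. In Atf6a-/- animals it lay at 10.47, 10.62 and 10.76 and at 11.09, 10.93 and 10.89, a difference of 0.35 (SE 0.13, adjusted p = 0.056). Of 14 bile acid genes, 2 were higher and 1 lower with TM in each genotype. Abcb4, the canalicular phospholipid exporter, rose by 0.99 and 1.15 and Klb, the coreceptor for FGF15, by 0.82 and 0.77. Slc10a1, which takes up bile acids, fell by 0.88 and 0.96. Cyp7a1, the rate-limiting enzyme of bile acid synthesis, was at 0.11 and -0.06. Of the other genes named by the same rule, Slco1b2, Cyp8b1, Slc51a, Slc51b and Baat were not called in any comparison.

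Of the xenobiotic receptors, Nr1i3 fell in both genotypes and Nr1i2 rose in Atf6a-/- animals. Nr1i3, which encodes CAR, lay at 10.64, 10.73 and 10.37 with vehicle and 8.79, 8.22 and 9.21 under TM in wild-type animals, and at 10.39, 10.61 and 10.49 and at 9.61, 9.09 and 8.50 in Atf6a-/- animals. All TM animals were below all vehicle animals, with a spread among TM animals of 0.50 and 0.55 (SD, n = 3). Nr1i3 fell by 1.84 (SE 0.27, adjusted p = 3.7e-04) and 1.43 (SE 0.27, adjusted p = 0.0015). Nr1i2, which encodes PXR, lay at 7.47, 7.71 and 7.12 with vehicle and 7.73, 7.15 and 7.76 under TM in wild-type animals, and at 7.49, 7.46 and 7.48 and at 8.31, 8.50 and 7.67 in Atf6a-/- animals. It rose by 0.69 in Atf6a-/- animals (SE 0.22, adjusted p = 0.034), and the adjusted p was 0.072 to 0.12 after leaving out any Atf6a-/- array but TM 3. Without TM 3 it was higher by 0.86 in Atf6a-/- than in wild-type animals under TM (adjusted p = 0.038). Of 12 xenobiotic genes, 1 was higher and 0 lower after TM in wild-type mice and 1 and 3 in Atf6a-/- animals. Cyp2b10, a cytochrome P450 best known as a CAR target, rose by 3.65 in wild-type and 2.73 in Atf6a-/- animals. In Atf6a-/- animals Alas1, the first enzyme of heme synthesis, fell by 1.72, the exporter gene Abcc3 by 1.36 and the sulfotransferase gene Sult1d1 by 0.87. Cyp2c29 and Gstm3, enzymes of drug metabolism, were not called.

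Nr1h3, the liver X receptor alpha gene, was at -0.37 in wild-type animals (SE 0.10, adjusted p = 0.024), under 1.5-fold, and at -0.17 in Atf6a-/- animals. Of 10 sterol genes under liver X receptors, 0 were higher and 5 lower in wild-type and 0 and 3 in Atf6a-/- animals. Srebf1, the master activator of fatty acid synthesis, fell by 3.68 and 2.09. Abcg8 and Abcg5, which export sterols, were lower by log2 differences of -1.99 and -1.60 and of -1.73 and -1.74. Abca1, which loads cholesterol onto HDL, was at -0.59 (called) and -0.11, and Pltp was not called. The fifth gene called in wild-type animals was Lpl, the gene of lipoprotein lipase, at -1.72 (adjusted p = 0.028). The Srebf1 response was less negative by 1.59 without ATF6a (SE 0.31, adjusted p = 0.029).

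Among the PPARs, receptors of fatty acids, Ppard, the broadly expressed form, was not called (-0.40 and -0.27). Pparg, the adipogenic form, lay at 7.11, 7.54 and 7.20 with vehicle and 6.89, 6.64 and 6.89 under TM in wild-type animals, and at 7.13, 7.15 and 7.47 and at 7.73, 7.15 and 7.55 in Atf6a-/- animals. It was called under TM between the genotypes, higher by 0.67 in Atf6a-/- animals (SE 0.16, adjusted p = 0.038). Neither response to TM was called, at -0.47 and 0.22, and the difference in response of 0.70 had an adjusted p of 0.22. Leaving out any 1 of 8 arrays (every TM array but Atf6a-/- TM 2, and Atf6a-/- vehicle 1 and 2 and wild-type vehicle 3) ended the call, with adjusted p from 0.051 to 0.17. Of 12 lipid genes listed here under PPARs, 4 were higher and 1 lower in wild-type and 5 and 1 in Atf6a-/- animals. Whether PPARs drove these changes was not tested, and Ppara, given below, fell in both genotypes. Fgf21, a fasting hormone, rose by 4.47 and 5.06, and Angptl4, an inhibitor of lipoprotein lipase, by 2.07 and 2.62. Pdk4, a brake on glucose oxidation, rose by 2.30 and 1.74 and Plin2, a lipid droplet coat protein, by 0.64 and 1.08. Cidec, another lipid droplet protein, was at -0.04 in wild-type animals and rose by 1.49 in Atf6a-/- animals. Ehhadh, a peroxisomal oxidation enzyme, fell by 0.85 and 0.86.

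The corticoid receptors both fell with TM in wild-type animals. Nr3c2, the mineralocorticoid receptor gene, lay at 7.27, 6.94 and 7.21 with vehicle and 5.75, 5.42 and 5.79 under TM in wild-type animals, and at 6.90, 7.13 and 7.20 and at 5.54, 5.34 and 5.60 in Atf6a-/- animals. TM and vehicle animals did not overlap. Nr3c2 fell by 1.49 (SE 0.13, adjusted p = 9.1e-06) in wild-type animals, and in Atf6a-/- animals the log2 difference was -1.58 (SE 0.13, adjusted p = 4.0e-06). Nr3c1, the glucocorticoid receptor gene, lay at 9.89, 10.03 and 10.20 with vehicle and 9.33, 9.22 and 9.44 under TM in wild-type animals, and at 9.97, 10.05 and 9.93 and at 9.88, 9.81 and 10.04 in Atf6a-/- animals. The 3 wild-type TM animals were below all the others. It fell by 0.71 in wild-type animals (SE 0.10, adjusted p = 4.0e-04) and was at -0.08 in Atf6a-/- animals. The difference in response was 0.64 (SE 0.15, adjusted p = 0.063), and 0.71 with an adjusted p of 0.046 without wild-type vehicle 1. The genotypes differed by 0.58 under TM (adjusted p = 0.0073), just under 1.5-fold, and by 0.59 to 0.63, past it, without Atf6a-/- TM 1, Atf6a-/- TM 2 or wild-type TM 3. Of 6 Nr3c1 probesets, 3 were called lower in wild-type and 0 in Atf6a-/- animals.

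Of 14 genes known as glucocorticoid receptor targets, 5 were higher and 1 lower after TM in wild-type mice and 6 and 2 in Atf6a-/- animals. The median response of the 14 was 0.92 and 1.20. Sgk1, a kinase of ion transport, rose by 2.58 and 3.67, Fkbp5, an immunophilin that restrains the receptor, by 1.10 and 1.54, and Tat, tyrosine aminotransferase, by 0.89 and 1.03. Dusp1, a phosphatase of MAP kinases, fell by 1.17 and 0.76, and Pck1, an enzyme of gluconeogenesis, by 1.04 in Atf6a-/- animals. Per1, a clock repressor, rose by 1.99 in wild-type and 0.80 in Atf6a-/- animals, and its response was smaller by a log2 difference of -1.19 without ATF6a (SE 0.24, adjusted p = 0.037).

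Esr1, the estrogen receptor alpha gene, lay at 9.98, 9.56 and 9.94 with vehicle and 8.23, 9.23 and 8.76 under TM in wild-type animals, and at 10.88, 10.47 and 9.58 and at 8.89, 8.15 and 8.95 in Atf6a-/- animals. In each group the animal with Y-linked signal was the lowest. Esr1 fell by 1.08 (SE 0.33, adjusted p = 0.037) in wild-type and 1.64 (SE 0.33, adjusted p = 0.0024) in Atf6a-/- animals. With the Y-linked signal as a second factor beside the groups, arrays that had it differed from the rest by a log2 difference of -0.76 (SE 0.12, adjusted p = 0.012), and Esr1 was the 1 member of 35 called for it, against 0.885% of all genes. At an unadjusted p under 0.05 there were 7 members, against 16.1% of all genes. The wild-type call was lost without wild-type TM 1 or 3, wild-type vehicle 1 or 3 or Atf6a-/- vehicle 2, with adjusted p from 0.0501 to 0.15. One of its 3 probesets was called lower in wild-type and 2 in Atf6a-/- animals. Esrra, an orphan relative that drives mitochondrial genes, was at -0.10 and -0.30, uncalled.

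Thra, a thyroid hormone receptor gene, lay at 8.11, 7.49 and 7.76 with vehicle and 7.37, 7.18 and 7.21 under TM in wild-type animals, and at 7.87, 7.88 and 7.61 and at 6.86, 7.37 and 7.03 in Atf6a-/- animals. TM and vehicle animals did not overlap in either genotype. It fell by 0.70 in Atf6a-/- animals (SE 0.16, adjusted p = 0.0062), in all 3 of its probesets. The wild-type response of -0.53 (adjusted p = 0.037) was under 1.5-fold, and it was -0.68, past the limits, without wild-type vehicle 2. In wild-type animals the 3 probesets ranged from -0.53 to -0.05, and 0 were called. Thrb, the main thyroid hormone receptor gene of liver, was at -0.01 and -0.34, uncalled. Its 1 probeset had group means between 5.05 and 5.39, near the array median, so that a change of Thrb could be missed. Of 6 thyroid hormone target genes, 1 was higher and 2 lower in wild-type and 2 and 1 in Atf6a-/- animals. Dio1, which converts thyroxine to the active hormone, fell by 1.19 and 0.98. Klf9, which is also in the glucocorticoid list, rose by 0.61 and 1.36, and Me1, malic enzyme, by 1.07 in Atf6a-/- animals. Bcl3 was at -0.92 (called) and 0.07, and it was higher by 0.91 in Atf6a-/- animals under TM (adjusted p = 0.019). Hr and Thrsp were not called.

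The COUP transcription factor gene Nr2f2 lay at 9.08, 9.16 and 9.06 with vehicle and 8.44, 8.04 and 8.43 under TM in wild-type animals, and at 9.05, 9.34 and 9.10 and at 8.58, 8.36 and 8.25 in Atf6a-/- animals. No TM animal overlapped a vehicle animal. Nr2f2 fell by 0.80 (SE 0.13, adjusted p = 9.0e-04) and 0.77 (SE 0.13, adjusted p = 7.7e-04), and the difference in response was 0.03 (SE 0.18). Of its 6 probesets, 3 were called lower in each genotype. Nr2f6, a related repressor, was at -0.23 and 0.14, uncalled.

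Hnf4a, a constitutive activator of hepatocyte genes, lay at 12.32, 12.67 and 12.42 with vehicle and 12.94, 12.93 and 12.62 under TM in wild-type animals, and at 12.04, 12.29 and 12.57 and at 13.37, 13.34 and 13.02 in Atf6a-/- animals. The wild-type groups overlapped and the Atf6a-/- groups did not. Hnf4a rose by 0.94 in Atf6a-/- animals (SE 0.15, adjusted p = 6.0e-04), in all 4 of its probesets. In wild-type animals it was at 0.36 (adjusted p = 0.14), and the difference in response of 0.58 (SE 0.22, adjusted p = 0.30) was not called. Of 12 hepatocyte genes known as HNF4A targets, 0 were higher and 5 lower with TM in wild-type and 0 and 7 in Atf6a-/- animals, with medians of -0.61 and -0.84. Cebpa, which encodes the hepatocyte factor C/EBPa, fell by 1.13 and 0.86. Otc, an enzyme of the urea cycle, fell by 0.72 and 1.03. Apoc2, an activator of lipoprotein lipase, fell by 0.80 and 1.40 and was lower in Atf6a-/- animals under TM (-0.83, adjusted p = 0.0062). F7, a clotting factor, fell by 0.76 and 1.46, F9, another, was at -0.51 and -0.86 (the latter called), and Mttp, which loads lipid onto lipoproteins, was at -0.75 (called) and -0.56.

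Nr6a1, the germ cell nuclear factor gene, lay at 6.46, 6.35 and 6.86 with vehicle and 6.08, 6.11 and 6.16 under TM in wild-type animals, and at 6.67, 7.65 and 6.88 and at 6.31, 6.27 and 6.34 in Atf6a-/- animals. It fell by 0.76 in Atf6a-/- animals (SE 0.21, adjusted p = 0.016), and by 0.47, under 1.5-fold, without the high animal Atf6a-/- vehicle 2. Of its 5 probesets, 1 was called. Nr5a2 (liver receptor homolog 1, which drives bile acid synthesis) was at 0.27 and 0.30, uncalled, and 1 of its 4 probesets was called higher in Atf6a-/- animals. The NR4A genes, immediate early genes in many cells, were uncalled at 8 h, with -0.21 and -0.37 for Nr4a1, -0.02 and -0.23 for Nr4a2 and -0.11 and -0.26 for Nr4a3. One of the 6 Nr4a2 probesets was higher by 0.92 after TM in wild-type mice (adjusted p = 0.0016) at a mean of 3.41, below the array median in all groups. Nr2f1 (COUP-TFI), Vdr (the vitamin D receptor) and Hnf4g (a relative of Hnf4a), also below it, ranged from -0.23 to -0.09 and were uncalled.

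Between the genotypes, members were called under TM and none with vehicle. With vehicle, 0 of 35 members were called higher and 0 lower by limma, as for all genes (0% in each direction), and Nr6a1 had an unadjusted p under 0.05, as had 705 of 18193 genes. Atf6 itself was not called with vehicle. Its brightest probeset did not overlap there, at 8.74 to 9.47 in wild-type and 7.03 to 7.79 in Atf6a-/- animals. The absence of calls with vehicle therefore does not show that receptor levels were alike. The methods' t-test also called 0 members there, with and without adjustment (without it, 0.033% of all genes were higher and 0.077% lower). Under TM, Rora, Nr2c1, Pparg and Rxrb were higher in Atf6a-/- animals, 4 of 35 against 2.89% of all genes, and 0 were lower, against 1.53%. At an unadjusted p under 0.05, 12 members were higher and 0 lower, against 2133 and 1278 of all genes. The methods' t-test gave 5 as higher before adjustment, against 3.54% of all genes, and 0 as lower, against 1.69%. After adjustment it gave 0 in each direction, as for all genes. The median genotype difference under TM was 0.12 over the members and -0.02 over all genes. The difference in response was called for Rora, Nr2c1 and Rxrb, 3 of 35 against 1.06% of all genes, and in the other direction for 0 against 0.748%. After centring of the arrays on a pair of reference genes (Btf3 and Ppia), the same differences in response were 0.95, 0.93 and 0.66, with adjusted p of 0.089, 0.070 and 0.097, and none of the 3 was called. At an unadjusted p under 0.05 there were 9 and 0 members, against 1626 and 982 of all genes. The same TM arrays enter the genotype comparison and the difference in response, so that these calls are not independent.

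**Figure D4:**
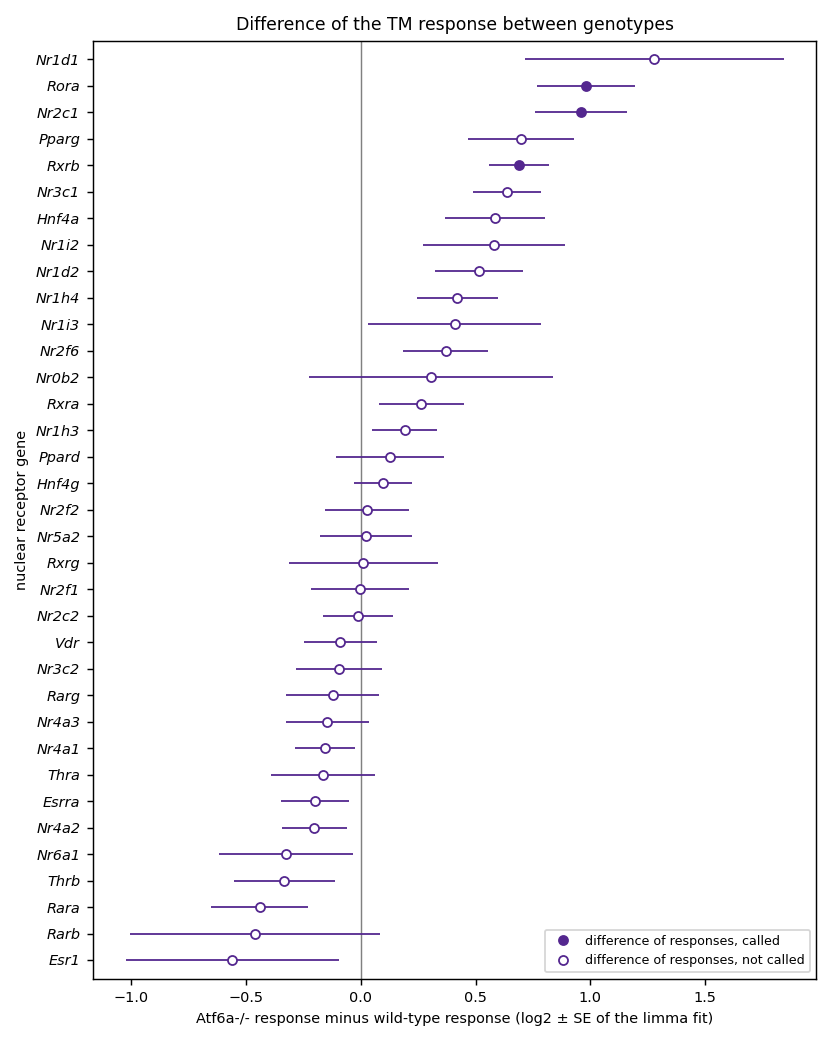
Difference of the TM response between the genotypes (Atf6a-/- minus wild-type, log2) with its standard error for the 35 measured nuclear receptors (ordered by size). Filled points were called, and these are Rora, Nr2c1 and Rxrb at 0.98, 0.96 and 0.69, while Nr1d1 at 1.28 with an SE of 0.56 is not.

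Receptors act through coregulators, and 20 of 22 listed coregulator genes were measured. With TM, 2 coregulator genes rose and 2 fell in wild-type animals, while 6 rose and 2 fell in Atf6a-/- animals. Ppargc1a, the coactivator PGC-1a, fell by 2.90 and 3.03. Ppargc1b, its relative PGC-1b, fell by 1.80 in wild-type animals (SE 0.26, adjusted p = 4.0e-04) and was at -0.71 in Atf6a-/- animals. Prmt1, an arginine methyltransferase, rose by 1.18 and 1.12 and Gps2, a subunit of the corepressor complex, by 0.72 and 0.75. Under TM, 4 were higher in Atf6a-/- than in wild-type animals (2.89% of all genes), and 0 lower (1.53%). These were Ppargc1b (1.07), the corepressor gene Nrip1 (1.03), the deacetylase gene Sirt1 (0.83) and the demethylase gene Kdm1a (0.60). Hdac3, the deacetylase of the corepressor complex, was lower by 1.05 with TM in Atf6a-/- animals (a log2 difference of -1.05) and at -0.58 in wild-type animals. No coregulator was called for the difference in response. Of 9 nuclear receptors outside the family list, Ppara fell by 1.67 and 1.65, and Esrrg fell by 1.13 in Atf6a-/- animals and was at -0.64 in wild-type animals (adjusted p = 0.11). The other 7, among them Nr2e1, Nr5a1, Pgr, Esr2 and Esrrb, were not called.

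Over all genes the median response to TM was -0.06 in wild-type and -0.10 in Atf6a-/- animals. Against these, the median was -0.67 and -0.42 for the sterol genes under liver X receptors, and 0.70 and 0.85 for the clock genes. The retinoid genes were at -0.13 and -0.59 and the xenobiotic genes at -0.11 and -0.44, and no gene of these 2 lists was called for the difference in response. The remaining medians were -0.07 and -0.26 for bile acid genes, -0.03 and -0.11 for lipid genes under PPARs, -0.01 and -0.03 for thyroid hormone targets and -0.04 and 0.22 for coregulators.

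**Figure D5:**
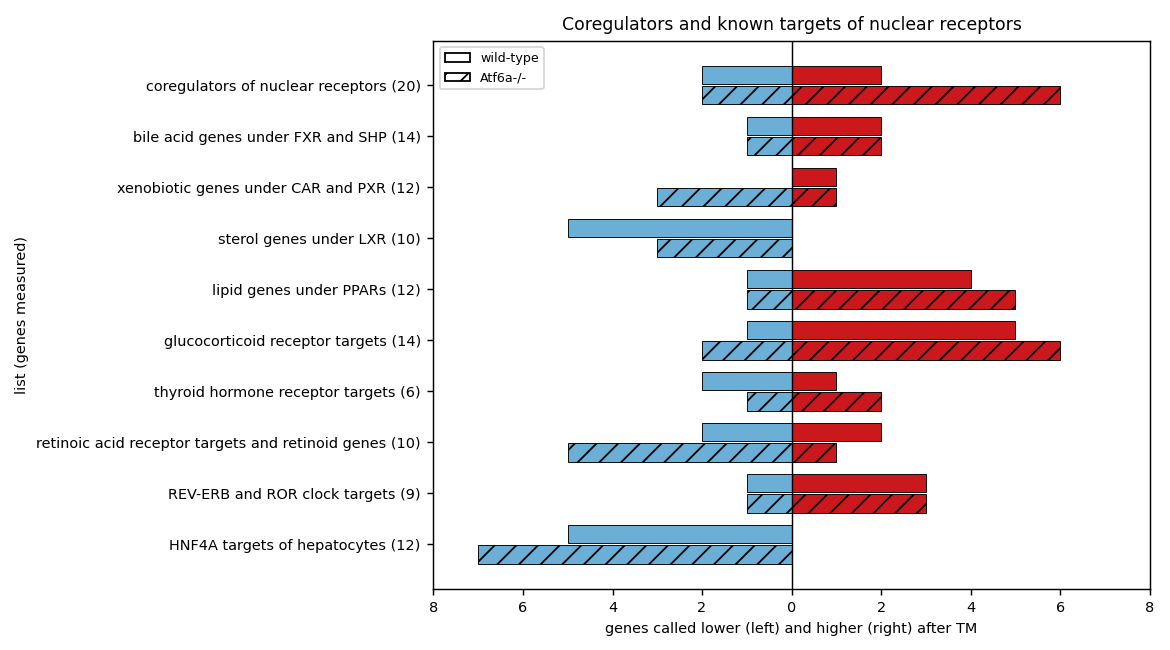
Number of genes called higher (red, to the right) and lower (blue, to the left) with TM in wild-type (plain) and Atf6a-/- (hatched) animals, for coregulators and for 9 lists of genes grouped here under nuclear receptors, with the number measured in parentheses. No gene of the HNF4A and liver X receptor lists was called higher, with 5 and 7 and 5 and 3 lower. Of the 14 glucocorticoid receptor targets, 5 and 6 were called higher and 1 and 2 lower. Over all genes, 8.92% and 13.1% were called higher and 6.9% and 8.21% lower (wild-type and Atf6a-/-).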

How the data were processed

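Liver RNA of 12 mice was hybridised to Affymetrix mouse arrays, and groups follow the sample titles. The deposited values are log2 intensities by probeset, and the submitters' processing notes name RMA (background correction, quantile normalization and summary by probeset), affy and limma, without saying which step each made. Their versions and the set of arrays normalized jointly were not given in the sources used here. No further normalization was applied to the deposited values. Of 45101 probesets, 64 controls were left out, which left 45037. The platform annotation named 1 gene for 34945 of these, several for 932 and none for 9160. A gene was represented by its brightest probeset naming it alone.

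Members and gene lists were chosen with earlier results of these data known. Members called in any comparison, and Hnf4a, Nr1h4 and Rxra, are given by animal. From each list the 4 genes with the largest statistics in wild-type animals and between genotypes under TM were named, and Cyp7a1, Dbp, Lpl, Dusp1, Pck1, Me1 and Aldh1a1 were named after their values were seen. With R 4.3.3 and limma 3.58.1, the 4 group means were fitted jointly over 12 arrays, with eBayes moderation (8 residual and 4.25 prior degrees of freedom), with Benjamini-Hochberg adjustment over 45037 probesets per comparison. The fit was tested on simulated data. Promoter windows came from RefSeq (GRCm38.p6). Correlations between members over the arrays are not given, since the groups separate. The number of arrays limits the precision. The p-values of limma set a difference against the spread between animals within groups, which was estimated partly from all probesets.

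Settings tried beside these were cyclic loess or quantile normalization, centring on Btf3 and Ppia (Ppia from a probeset that names several genes) or the median, dim probesets removed, the animal number as a block, Y-linked signal as covariate or its arrays left out, eBayes with trend, robust variances, other fold limits, adjustment over genes, the methods' t-test, only the arrays of a comparison, other choices of probeset, and each array left out.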

Additional observations from a re-analysis of the deposited data

Results flagged for a closer look

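The response to TM differed between the genotypes by limma's test of the difference for 10 genes named above or in the lists, 3 of them nuclear receptors. The log2 difference in response (Atf6a-/- minus wild-type) was 0.98 for Rora, 0.96 for Nr2c1 and 0.69 for Rxrb. Of the genes under liver X and glucocorticoid receptors, it was 1.59 for Srebf1 and -1.19 for Per1. Of the unfolded protein response genes that served as a check, it was 1.55 for Atf3, -3.25 for Derl3, -2.91 for Creld2, -2.18 for Sdf2l1 and -2.91 for Pdia4. Creld2, Derl3, Sdf2l1 and Pdia4 are known targets of ATF6a, and Atf3 lies under ATF4.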

How the results depend on the processing

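No call of a member reversed under any alternative run. Calls held under every alternative run for Rora, Rxrb, Nr2c1 and Nr3c2 in Atf6a-/- animals and for Rora, Nr0b2 and Nr3c2 in wild-type animals. The call for the difference in response was kept in 10 of 26 alternatives for Rora, 13 of 26 for Nr2c1 and 17 of 26 for Rxrb, that of Pparg between genotypes in 15 of 28 and that of Nr1i2 in Atf6a-/- animals in 17 of 29. Members higher in response without ATF6a were 0 with centring on Btf3 and Ppia, 0 at a 2-fold limit and 1 with the replicate block. Animal numbers did not pair the samples (correlations of same-numbered deviations from -0.476 to 0.394), and the block ended the calls of Rora and Nr2c1 for this difference, of Pparg between genotypes and of Esr1 in wild-type animals, and changed no other call of a member. Leaving out 1 array gave 0 to 4 for the difference in response (0 without Atf6a-/- TM 1 or 3, Atf6a-/- vehicle 1 or 2, wild-type TM 2 or 3 or wild-type vehicle 3, and 1 without wild-type TM 1), 2 to 5 for genotypes under TM (2 without wild-type TM 2), 2 to 3 higher and 5 to 9 lower in wild-type and 4 to 5 higher and 7 to 9 lower in Atf6a-/- animals. Without the 4 arrays with Y-linked signal, 10 members were lower in wild-type animals, against 9.29% of all genes (6.9% with all arrays). At a 2-fold limit, 1 was higher in wild-type animals, 3 higher and 5 lower in Atf6a-/- animals and 0 higher between genotypes under TM. The adjusted t-test of the methods gave 3 lower in wild-type animals, 3 higher and 2 lower in Atf6a-/- animals and 0 higher between genotypes under TM, and the mean of all probesets gave 3 lower in wild-type animals. The cause was not tested beyond the fewer genes that a higher fold limit can pass. Shares of all genes are given for the arrays without Y-linked signal and, above, for the methods' t-test. They are not given for the other counts of this paragraph, which are therefore no result about the receptors as a family. Signal over background limits Nr2f1, Vdr and Hnf4g, and the Thrb probeset lay near the array median. With TM, 2 called members also came close to that median in wild-type and Atf6a-/- animals. These were Rarb (group means 5.45 and 5.23) and Nr3c2 (5.66 and 5.49). Whether this limited the size of their falls was not tested.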
